A study of Mus musculus with 2 samples.

Results

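The miR-148/miR-152 family comprises the microRNA (miRNA) genes Mir148a, Mir148b and Mir152, grouped because their main mature products carry 1 seed. All 3 have a line in the deposited counts, among 1973 miRNA genes in all. The counts come from small RNA (under 30 nt) sequenced from kidneys of B6NCrl mouse embryos at 15.5 days of development, labelled healthy and with no treatment or engineered allele named. The samples form 1 group of 2 biological replicates, each a pool of kidneys from male and female embryos, 78 in replicate 1 and 62 in replicate 2. The design holds no other tissue, age or treatment, so what can be asked is how abundant each family member is in the E15.5 kidney, how the members rank, and how closely the pools match.

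A miRNA is cut from a hairpin transcript into a product that guides Argonaute proteins to messenger RNAs, chiefly through its seed, bases 2 to 8 from the 5′ end. Members of a seed family can therefore pair with the same target sites. The miR-148/miR-152 family is known for repressing the DNA methyltransferase Dnmt1, in human cells for repressing HLA-G, and, for miR-148a, for limiting the low-density lipoprotein receptor in liver. miR-148a is known as an abundant miRNA of liver.

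The mature 3p sequences, given first because they define the family, are shown as listed by RefSeq (GRCm38.p6), with the seed in capitals.
miR-148a-3p: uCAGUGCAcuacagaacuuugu
miR-148b-3p: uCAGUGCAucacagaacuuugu
miR-152-3p: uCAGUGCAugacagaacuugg

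All 3 sequences share the seed, and no other of the 1738 mature entries of the RefSeq table carries it. Counting from the 5′ end, miR-148a-3p and miR-148b-3p differ at 2 positions, C9U and U10C, just past the seed. miR-148a-3p and miR-152-3p differ at 3 compared positions, C9U, U10G and U20G. miR-148b-3p and miR-152-3p differ at 2, C10G and U20G, and miR-152-3p is 21 nt long against 22 nt for the other products. The longest identical run of aligned bases is 12 between the miR-148 products and 9 between either of them and miR-152-3p.

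The 5p arms, cut from the other side of each hairpin, are shown because their seeds do not group the genes in the same way.
miR-148a-5p: aAAGUUCUgagacacuccgacu
miR-148b-5p: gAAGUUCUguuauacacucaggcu
miR-152-5p: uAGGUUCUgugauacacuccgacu

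miR-148a-5p and miR-148b-5p share a seed that no other table entry has, whereas miR-152-5p differs from it by A3G and stands alone with its seed. Aligned from the first base, the 5p arms of Mir148a and Mir148b differ at 9 positions, those of Mir148a and Mir152 at 10, and those of Mir148b and Mir152 at 5. The deposited counts are per hairpin gene, so the arms were not told apart in any value given here.

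The hairpins are shown with the 3p product in capitals, since the whole hairpin is what a count refers to.
Mir148a: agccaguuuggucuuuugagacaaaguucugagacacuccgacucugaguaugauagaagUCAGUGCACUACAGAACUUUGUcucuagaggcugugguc
Mir148b: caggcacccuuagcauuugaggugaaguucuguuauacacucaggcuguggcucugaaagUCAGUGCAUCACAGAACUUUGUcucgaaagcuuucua
Mir152: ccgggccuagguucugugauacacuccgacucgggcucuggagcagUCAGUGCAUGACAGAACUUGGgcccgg

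The genes lie on 3 chromosomes of the mm10 (GRCm38) assembly. Mir148a (ENSMUSG00000065505.1) is intergenic on the minus strand of chromosome 6, from 51269812 to 51269910. Mir148b (ENSMUSG00000065560.1) is intronic to Copz1, on the plus strand as its host is, on chromosome 15 from 103285125 to 103285221. Mir152 (ENSMUSG00000065515.1) is intronic to Copz2, again on the plus strand with its host, on chromosome 11 from 96850393 to 96850465. Copz1 and Copz2 encode the zeta subunits of the coatomer, the coat of vesicles that return cargo from the Golgi to the endoplasmic reticulum, and their transcripts were not measured here. The hairpins are 99, 97 and 73 nt long, and their GC content is 45.5%, 45.4% and 61.6%, so Mir152 has the shortest and most GC-rich hairpin of the family.

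The authors kept multimapping reads on a line of their own, outside the count of any gene. They were 27.1% of the reads of replicate 1 and 26.6% of those of replicate 2. Among 2201 other miRNA genes of GENCODE M21, read on both strands, the longest stretch shared was 15 nt for Mir148a and Mir148b, with each other, and 13 nt for Mir152, with Mir3473f. These stretches are shorter than a mature product, and no member has a mature sequence identical to another gene's in the RefSeq table. Copies elsewhere in the genome were not looked for.

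The family was a minor part of the miRNA reads of the E15.5 kidney, and Mir148a supplied most of that part. How evenly different miRNAs were turned into reads was not tested. In bulk tissue such as this, fewer cells of a type and less RNA per cell cannot be told apart. Mir148a had 3404 reads in replicate 1 and 2718 in replicate 2, which is 458 and 464 counts per 1000000 own-strand miRNA reads (CPM). It averaged 461 ± 4.01 CPM (SD, n = 2), at rank 106 in replicate 1 and rank 111 in replicate 2 among 1973 genes. The libraries were close for this gene, with 95% exact binomial intervals of 443 to 474 and 446 to 481 CPM that overlap. These intervals, here and below, cover counting error only.

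Mir148b had 923 reads in replicate 1 and 711 in replicate 2, or 124 (116 to 132) and 121 (113 to 131) CPM. Its mean was 123 ± 2.05 CPM (SD, n = 2), at ranks 163 and 175. The pools again overlapped within counting error.

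Mir152 had 822 reads in replicate 1 and 760 in replicate 2, or 111 (103 to 118) and 129.6 (121 to 139) CPM. Its mean was 120.1 ± 13.5 CPM (SD, n = 2), at ranks 169 and 172. It was the member for which the intervals of the libraries did not overlap, replicate 1 being lower. Own-strand totals were 7434182 and 5863293 reads, and a count of 0 would allow up to 0.404 and 0.512 CPM, so each member stood far above the floor.

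**Figure D1:**
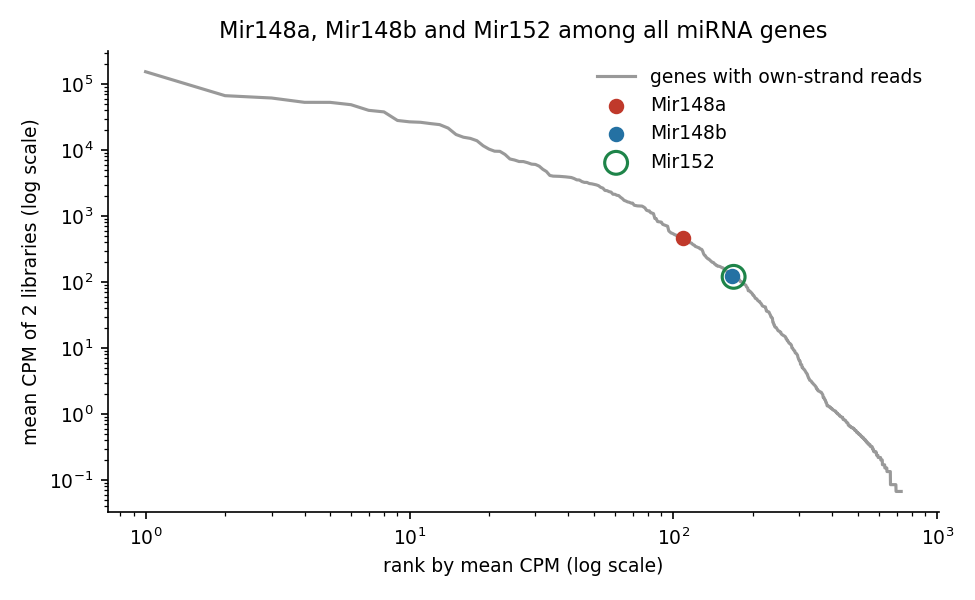
Mean CPM of the 2 libraries (y axis, log scale) against rank (x axis, log scale) for the 729 miRNA genes with own-strand reads (grey line). Mir148a (filled red) stands at rank 109 by mean, and Mir148b (filled blue) and Mir152 (open green ring) lie on top of each other at ranks 167 and 169.

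Together the 3 genes held 5149 reads, or 0.0693% of counts (0.0674 to 0.0712), in replicate 1 and 4189 reads, or 0.0714% (0.0693 to 0.0736), in replicate 2. The family mean was 0.0704% ± 0.00154 (SD, n = 2). Within the family, Mir148a made up 66.1% of reads (64.8 to 67.4) in replicate 1 and 64.9% (63.4 to 66.3) in replicate 2. Mir148b made up 17.9% (16.9 to 19.0) and 17.0% (15.8 to 18.1), and Mir152 15.96% (14.97 to 16.99) and 18.1% (16.99 to 19.3). The split was thus alike in the pools for the miR-148 genes, and for Mir152 the intervals only touched.

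The lead of Mir148a held in both libraries and on either scale. Its reads were 3.69 times those of Mir148b in replicate 1 (95% exact interval 3.43 to 3.97) and 3.82 times in replicate 2 (3.52 to 4.16). Against Mir152 the ratio was 4.14 (3.84 to 4.47) in replicate 1 and 3.58 (3.30 to 3.88) in replicate 2. Per nucleotide of hairpin, Mir148a was at 4.63 and 4.68 CPM per nt, Mir148b at 1.28 and 1.25, and Mir152 at 1.51 and 1.78, in replicate 1 and replicate 2. On that scale Mir148a was 3.61 and 3.75 times Mir148b, and 3.05 and 2.64 times Mir152.

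The order of Mir148b and Mir152 differed between libraries and scales. Mir148b had 1.12 times the reads of Mir152 in replicate 1 (1.02 to 1.24) and 0.936 times in replicate 2 (0.843 to 1.04), so the order of the reads turned between the pools. Per nucleotide of hairpin Mir148b was below Mir152 in both libraries, at 0.845 times (0.768 to 0.929) and 0.704 times (0.635 to 0.781). That scale divides by hairpins of 97 nt for Mir148b and 73 nt for Mir152, whereas the RNA sequenced was under 30 nt. The order per nucleotide therefore rests on the hairpin lengths, and the reads gave no steady order. No p is given for the order, since an exact two-sided sign-flip test over 2 libraries cannot go below 0.5.

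**Figure D2:**
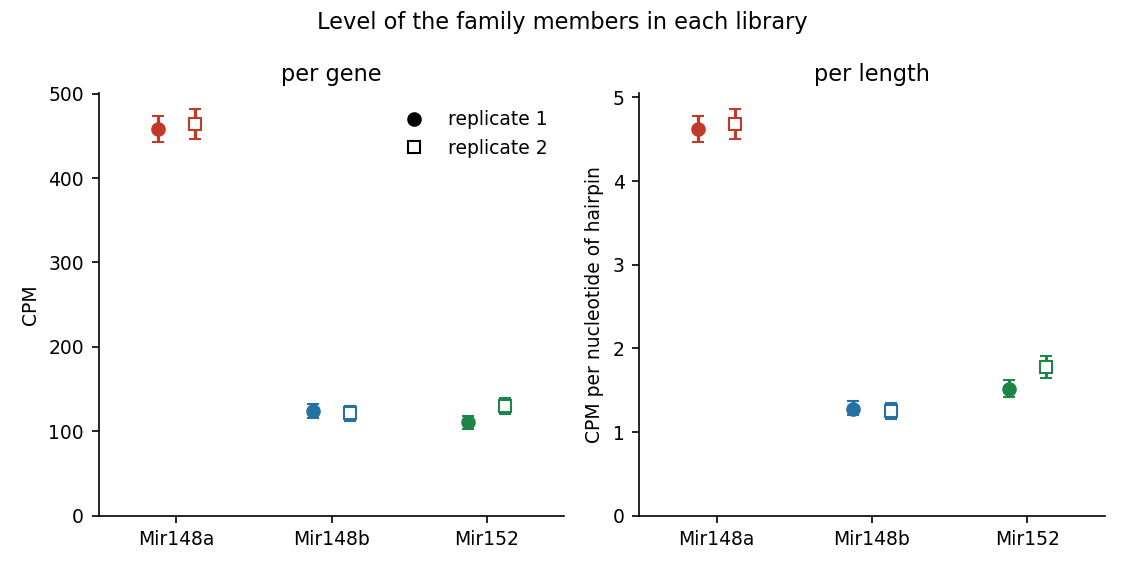
Level of each family member in replicate 1 (filled circles) and replicate 2 (open squares), as CPM (left) and as CPM per nucleotide of hairpin (right). Bars are 95% exact binomial intervals. Mir148a lies above the others in both panels, whereas Mir148b and Mir152 cross between replicates on the left and stand apart on the right.

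The pools were compared gene by gene over 378 miRNA genes whose mean count reached 10, by a two-sided exact binomial test that takes the library totals as given. Of the 3 members, 1 was called at a Benjamini-Hochberg adjusted p under 0.05, beside 55.8% of all genes tested. Among the 97 genes tested with a mean of 100 to 1000 CPM, the range the members fall in, 76.3% were called. None of the members differed by at least 2-fold and passed that threshold, beside 6.08% of the genes tested. The test compares these libraries, not conditions.

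The called member was Mir152, at a log2 ratio of replicate 1 over replicate 2 of -0.23 (95% exact interval -0.37 to -0.09; exact binomial test, adjusted p = 0.00346). Mir148a had a log2 ratio of -0.02 (-0.09 to 0.06; exact binomial test, adjusted p = 0.726), and Mir148b had 0.03 (-0.11 to 0.18; adjusted p = 0.746). The sum of the family had a log2 ratio of -0.04 (-0.10 to 0.01). The median over the 378 genes tested was -0.15, and the median absolute log2 ratio was 0.28, so each member lay nearer to 0 than that median absolute ratio. As a coefficient of variation over the libraries, the spread was 0.871% for Mir148a, 1.67% for Mir148b and 11.2% for Mir152. The biological coefficient of variation of all genes tested was 0.246 as a fraction (edgeR, intercept alone). It is another measure than the spread of each member, since it leaves out counting error and is pooled over all genes tested. It was fitted on library totals, so the shift of the median gene enters it.

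The median gene was shifted between the libraries, and these calls changed with the scaling. With TMM factors, which moved every log2 ratio up, Mir152 stood at -0.10 (adjusted p = 0.235) and was not called, whereas Mir148a at 0.11 (adjusted p = 0.00605) and Mir148b at 0.16 (adjusted p = 0.0447) were called as higher in replicate 1 by the exact binomial test. DESeq2 size factors gave -0.082 for Mir152 (adjusted p = 0.358), 0.13 for Mir148a (adjusted p = 0.00106) and 0.18 for Mir148b (adjusted p = 0.0224). Mir152 was lower in replicate 1 under all 3 scalings, and Mir148b higher in replicate 1 under all 3. The sign for Mir148a changed with the scaling.

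**Figure D3:**
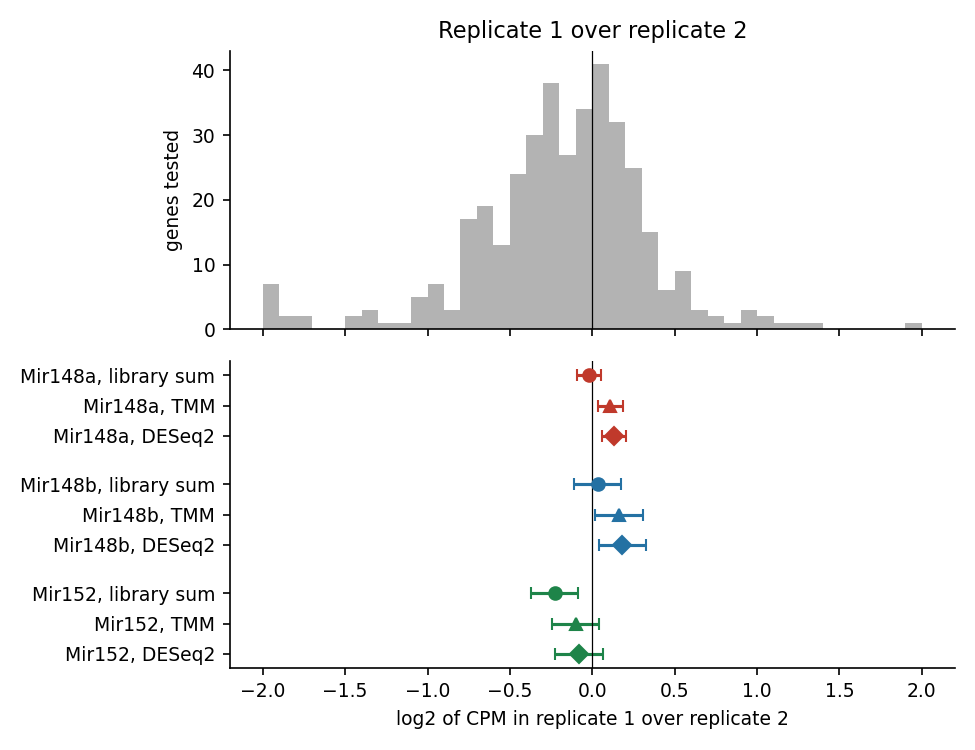
Top, number of genes tested (y axis) by log2 ratio of CPM in replicate 1 over replicate 2 (x axis), with the most extreme ratios placed in the end bars. Bottom, the ratio of each member with its 95% exact interval under 3 scalings. The members lie between -0.23 and 0.18, and Mir148a crosses 0 with the scaling.

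Markers of other cells also differed between the pools, in both directions, beside a median of -0.15 on the log2 scale over all genes tested. Of all genes tested 55.8% were called, so the calls here and in the next paragraph are not particular to these cells. Mir122 of hepatocytes had 319 CPM in replicate 1 and 628 in replicate 2, a log2 ratio of -0.98. The 2 erythroid genes summed to 339 and 466 CPM, a log2 ratio of -0.46, with Mir451a called as lower in replicate 1 and Mir144 not called. The 3 leukocyte genes in the files summed to 619 and 700.1 CPM, a log2 ratio of -0.18 near that of the median gene, with Mir155 called as lower at -0.44 and Mir223 at 393 CPM in both libraries. With TMM or DESeq2 scaling 1 leukocyte gene was called as higher and 1 as lower in replicate 1. Mir142, also listed for leukocytes, has no line under that name and is missing from the leukocyte sum. The Mir142b line held 0 own-strand reads, but 3459 (replicate 1) and 2995 (replicate 2) lay against its strand. Those counts exceed the reads of any leukocyte gene in the sum. Whether they belong to Mir142 was not tested, so the leukocyte sum can be too low.

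The pancreas sum of 1246.5 CPM in replicate 1 and 1679 in replicate 2 was almost all Mir375. Of the other 3 pancreas genes, Mir217 had 21 and 7 reads, Mir216b had 7 and 0, and Mir216a was at 0 in both, so the median of the 2 genes tested was 0.40 on the log2 scale while its sum was lower in replicate 1. The neural sum of 129 and 219 CPM was likewise almost all Mir137, whereas Mir9-3 had 19 and 6 reads, and the median of the 2 genes tested was 0.27. The striated muscle list summed to 1011 and 695 CPM, with 3 of 6 genes having reads and Mir206 and Mir208b called as higher in replicate 1. Mir1a-1, Mir133a-1 and Mir133a-2 of muscle and Mir124a-1, Mir124a-2, Mir124a-3 and Mir9-2 of the neural list were at 0, but these miRNAs are encoded by several gene copies with the same mature sequence, so their counts can be too low. The part of these cells in the Mir152 difference was not tested. The 20 genes listed for kidney all had reads and held 31.4% and 28.7% of counts, led by Mir10a and Mir10b, with Mir192 and Mir204 at 155 ± 51.8 and 200.4 ± 47.3 CPM (SD, n = 2 each). The kidney genes differed between the pools too. Of the 20 tested, 10 were called as higher in replicate 1 and 8 as lower, or 12 and 4 with TMM or DESeq2 scaling. Among all genes tested with a mean count of at least 100, 73.5% were called.

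The genes nearest to each member in level over the 2 libraries were taken among those whose mean count reached 100, by distance in log2(CPM + 1). Nearest to Mir148a were Mir1193 (distance 0.132), Mir134 (0.154) and Mir320 (0.171), at 435 ± 13.6, 439 ± 38.4 and 492 ± 42.2 CPM. Nearest to Mir148b were Mir181a-2 (0.0531), Mir135b (0.147) and Mir701 (0.184), at 126 ± 1.82, 115 ± 2.81 and 116 ± 12.7 CPM. Nearest to Mir152 were Mir5099 (0.0364), Mir494 (0.0465) and Mir376c (0.0695), at 122 ± 15.3, 118 ± 14.2 and 124 ± 17.2 CPM (SD, n = 2 each). As background, Mir134, Mir494 and Mir376c belong to the imprinted Dlk1-Dio3 domain of chromosome 12. Mir1193 and Mir5099 are also on chromosome 12, and whether they lie in that domain was not looked up. Likeness over 2 libraries describes levels only.

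Each member lies within 1 Mb of a Hox cluster, the arrays of homeobox genes that pattern the body axis, and the miRNA genes inside those clusters were mostly far more abundant. For Mir148b, Hoxc4 is 248 kb away, and for Mir152, Hoxb1 is 482 kb away. Flanking genes come from the same gene families at the 3 loci. Cbx genes of heterochromatin proteins lie 200.5 kb from Mir148a (Cbx3), 45.3 kb from Mir148b (Cbx5) and 41.8 kb from Mir152 (Cbx1). The transcription factor genes Nfe2l3, Nfe2 and Nfe2l1 lie 163, 26.7 and 20.4 kb away, in the same order. The sorting nexin genes Snx10 and Snx11 flank Mir148a at 254 kb and Mir152 at 72.8 kb.

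Near Mir148a, Mir196b in the Hoxa cluster, 960.2 kb away, had 26095 and 24366 CPM in replicate 1 and replicate 2. Per nucleotide of hairpin it was 66.4 and 61.2 times Mir148a. Near Mir148b, Mir615 (270.1 kb) and Mir196a-2 (312 kb) of the Hoxc cluster had 3688 and 4377 CPM, and 2416 and 3366 CPM. Per nucleotide these were 31.3 and 38.1 times, and 22.2 and 31.7 times, Mir148b.

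Near Mir152, Mir10a of the Hoxb cluster (533 kb), the most abundant miRNA gene of these libraries, had 167241 and 140739 CPM. Per nucleotide that was 1004 and 721 times Mir152. Mir196a-1, 585 kb away in the same cluster, had 56.2 and 70.3 CPM and was at 0.364 and 0.388 times Mir152 per nucleotide. Mir196a-1 and Mir196a-2 share a mature sequence, so their counts can be too low. Of the 16 other miRNA genes in the files within 1 Mb of a member, 12 had reads, and the 5 of the Hox clusters were the only ones to reach 1 CPM by mean.

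**Figure D4:**
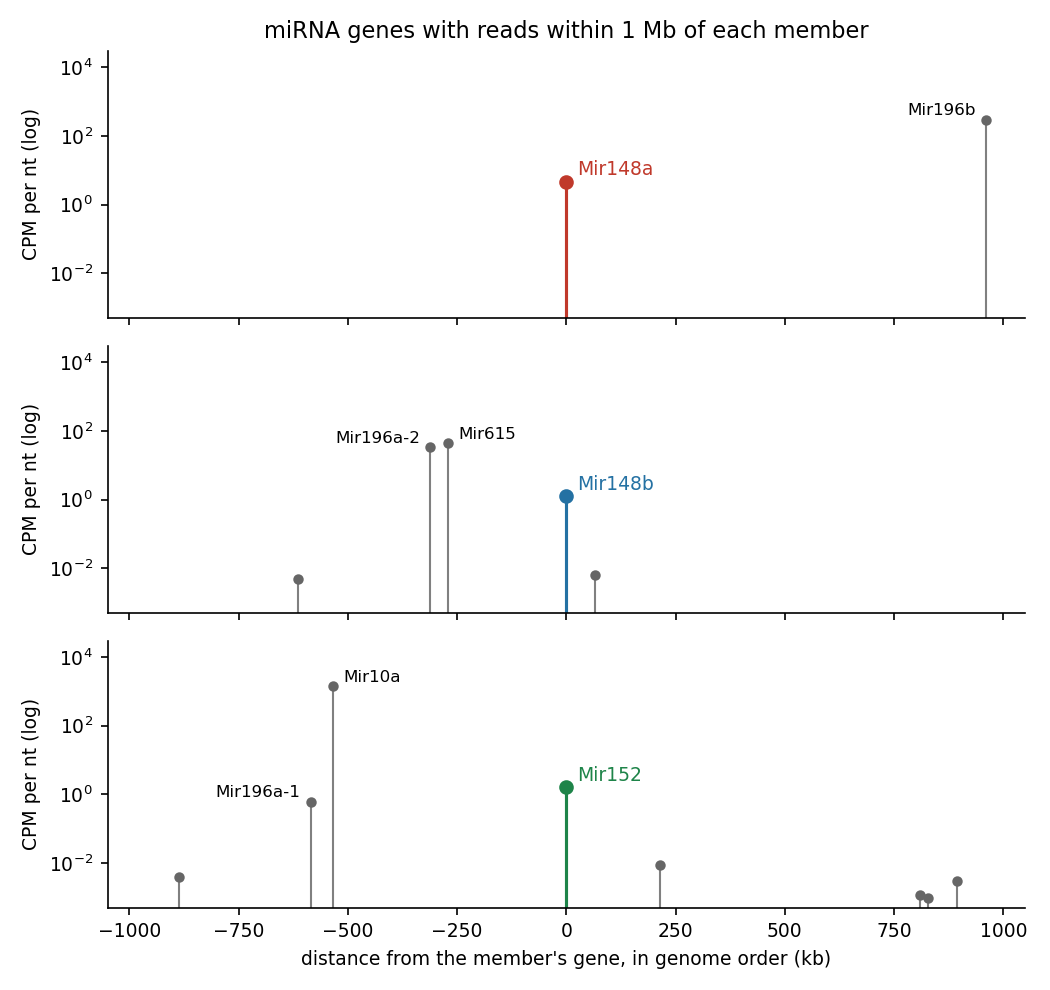
CPM per nucleotide of hairpin (y axis, log scale, mean of 2 libraries) for miRNA genes with reads within 1 Mb of each member (coloured), against distance in kb (x axis, in genome order). Mir196b, Mir615, Mir196a-2 and Mir10a exceed the member beside them, whereas Mir196a-1 is below Mir152.

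The seed of the miR-148/miR-152 family overlaps the seed of products of the miR-130/miR-301 family, whose member miR-130a is known for promoting angiogenesis in endothelial cells, by 6 letters set 1 base apart. These letters, AGUGCA, stand at bases 3 to 8 of the miR-148/miR-152 products and at bases 2 to 7 of the 3p products of Mir130a, Mir130b and Mir301. The shared letters are in capitals in the products below, shown because they link families of unequal abundance.
miR-148a-3p: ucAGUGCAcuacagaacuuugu
miR-152-3p: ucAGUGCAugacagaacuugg
miR-130a-3p: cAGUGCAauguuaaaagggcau
miR-130b-3p: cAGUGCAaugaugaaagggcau
miR-301a-3p: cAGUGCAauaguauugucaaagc

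The miR-148/miR-152 family was far below this relative. It held 0.0704% ± 0.00154 of counts, against 3.13% ± 0.314 for the 4 miR-130/miR-301 genes (SD, n = 2 each). By share of counts the miR-130/miR-301 sum was 48.4 times the miR-148/miR-152 sum in replicate 1 and 40.7 times in replicate 2. Per nucleotide of hairpin it was 67.0 times in replicate 1 and 56.0 times in replicate 2. By gene, Mir148a at 4.63 and 4.68 CPM per nt was below Mir301 at 7.65 and 9.79 and above Mir301b at 0.639 and 0.714, whereas Mir130a reached 407 and 353. The spread from the highest to the lowest gene was thus wider in the miR-130/miR-301 family. Between the pools, Mir130a and Mir130b were called as higher in replicate 1, at log2 ratios of 0.20 and 0.28. Mir301 was called as lower, at -0.36, and these calls held under all 3 scalings. Such calls are not particular to this family, since 55.8% of all genes tested were called. For genes averaging 100 or more reads, the share called was 73.5%.

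The miR-26 family, whose genes lie in introns of the Ctdsp phosphatase genes, held 2.64% ± 0.00574 (SD, n = 2), nearly all from Mir26b. Its sum was 38.2 and 37.0 times that of the miR-148/miR-152 family by share of counts, and 42.0 and 40.3 times per nucleotide. Mir148b at 1.28 and 1.25 and Mir152 at 1.51 and 1.78 CPM per nt were above Mir26a-1 at 0.108 and 0.148 and Mir26a-2 at 0.485 and 0.536. Mir26a-1 and Mir26a-2 share their mature sequences, so their counts can be too low. Mir26b and the miR-148/miR-152 genes share no mature sequence with another gene of the RefSeq table, but copies elsewhere in the genome were not looked for.

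**Figure D5:**
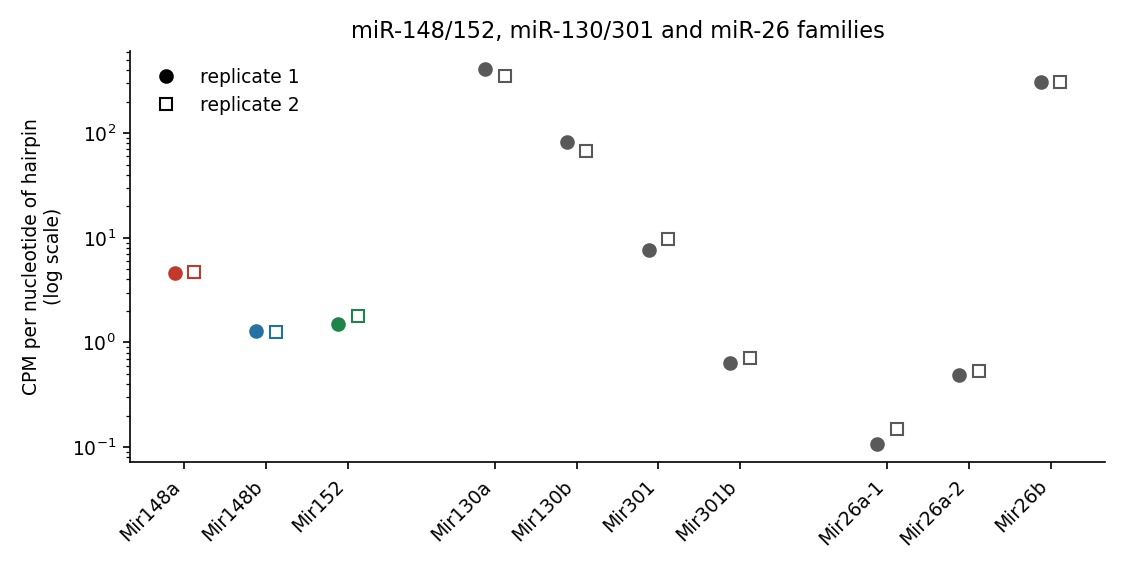
CPM per nucleotide of hairpin (y axis, log scale) in replicate 1 (filled circles) and replicate 2 (open squares) for the genes of the miR-148/miR-152 (coloured), miR-130/miR-301 and miR-26 families. The miR-148/miR-152 genes span 1.25 to 4.68, within the range of the miR-130/miR-301 genes, 0.639 to 407.

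The known role of the family in repressing Dnmt1 places it beside other miRNAs that target DNA methyltransferase messages. Of the 9 genes listed, 3 were above Mir148a per nucleotide of hairpin, 5 were below Mir148b and 1 lay between. Those above were Mir126a, encoded in the endothelial gene Egfl7, at 681 and 655 CPM per nt, Mir342 at 24.2 and 41.2, and Mir101b at 15.6 and 13.7. Mir185, which targets Dnmt1 in human cells, lay between the members at 2.46 and 2.06. The miR-29 genes, known for repressing Dnmt3a and Dnmt3b, were all below, led by Mir29c at 0.590 and 0.688. Mir29b-1 and Mir29b-2 share a mature sequence, so their 4 and 2, and 5 and 4, reads can be too low.

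In this list 3 of the 7 genes tested were called as higher in replicate 1 (Mir101b, Mir185 and Mir126a, at log2 ratios of 0.20, 0.25 and 0.06) and 1 as lower (Mir342, at -0.77), and the counts were equal under TMM and DESeq2 scaling. These 4 calls among 7 genes are near the 55.8% called over all genes tested. The list median was -0.06, against -0.15 for all genes tested and -0.02 for the miR-148/miR-152 family. With TMM the medians were 0.07 for the list, -0.02 for all genes and 0.11 for the family.

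Of the 10 genes listed for lipid and cholesterol control, the other setting in which miR-148a is known, 2 exceeded Mir148a per nucleotide, 2 lay within the range of the members and 6 were below Mir148b. Above it were Mir27b, at 22.5 CPM per nt in both libraries, and Mir122, of hepatocytes, at 4.83 and 9.52. Mir223 (3.57 and 3.58) and Mir144 (1.28 and 1.44) lay within the range, while Mir33, which lies in an intron of Srebf2 and represses Abca1, was lower, at 0.752 and 0.517. By CPM, Mir122 was below Mir148a in replicate 1 (319 against 458) and above it in replicate 2 (628 against 464). Mir144, at 84.7 and 95.2 CPM, was below every member. The placings of Mir122 and Mir144 thus depend on the scale. In this list 1 gene, Mir33, was called as higher in replicate 1 and 4 as lower, with 10 tested, but the split was 4 and 2 under TMM and DESeq2 scaling. The 5 calls among 10 genes are near the 55.8% called over all genes, of which 59 of 211 were higher in replicate 1. The list median log2 ratio was -0.20, and -0.07 with TMM. Of these 10 genes, the 4 of the Mir128 and Mir30c pairs share mature sequences within each pair.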

How the data were processed

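The authors' deposited files give raw read counts per miRNA gene for each library, split by strand. Reads had been aligned to mm10 with the GENCODE M4 annotation, per the deposited notes. The aligner and the counter were not given in the sources used here. Own-strand counts were divided by their sum over all genes and given as CPM (scaled to 1000000) or percent. Lines for reads outside genes were left out of totals.

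Names and positions came from GENCODE M21 by gene identifier (1894 of 1973 genes matched), and sequences from RefSeq GRCm38.p6, where all 3 members matched by symbol. The libraries' counts were compared by a two-sided exact binomial test. The p-values were adjusted after Benjamini and Hochberg over all genes whose mean count reached 10. The test was tried on simulated data that held counting error alone. That trial does not cover further spread between pools or a shift of the median gene. edgeR 4.0.16 gave the dispersion and TMM factors and DESeq2 1.42.0 size factors (R 4.3.3). Other steps used Python 3.11.15, numpy 2.4.6, pandas 2.3.3, scipy 1.17.1 and matplotlib 3.10.9.

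The members and lists were chosen with earlier results of these data known. Named genes are the members, list genes, the 3 genes nearest to each member in level, and miRNA genes within 1 Mb. The flanking protein-coding genes, the shared 6 letters and the range of 100 to 1000 CPM were chosen after values or sequences were seen. Nothing in the labels beyond separate pools tells how independent the replicates are, and p-values here cover counting error between these libraries only.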

Additional observations from a re-analysis of the deposited data

How the results depend on the processing

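The family share of 0.0704% became 0.0688% with both strands summed, 0.0352% with all reads in the files as the total and 0.0832% without Mir10a, and was 0.0693% to 0.0714% when either replicate was left out. The ratio of Mir148a to Mir152 in mean CPM, 3.84, fell to 2.83 per nucleotide of hairpin. That of Mir148b to Mir152, 1.02, turned to 0.769 per nucleotide, and ranged from 0.936 to 1.12 when either replicate was left out. The log2 ratio of Mir148a (-0.02) turned to 0.11 with TMM, 0.13 with DESeq2 size factors and 0.072 with all reads as the total. That of Mir148b (0.03) passed the threshold at 0.16 with TMM and 0.18 with DESeq2. That of Mir152 (-0.23) no longer passed at -0.10 with TMM, -0.082 with DESeq2 and -0.14 with all reads as the total. These scalings shift all genes alike by construction. In all, 211 genes differed between the libraries, 59 of them higher in replicate 1 and the rest lower. With TMM 111 were higher and 109 lower, and with DESeq2 116 and 105. By at least 2-fold, 23 differed, but 35 with no count filter and 9 at a mean count of at least 100, where other numbers of genes were tested. The other 28 of 44 comparisons with an alternative kept direction and side of the threshold, moved less than the replicate spread, or kept a similar total. The last rule was used for the numbers of genes differing, whatever their split by direction. No paired analysis was possible because the libraries form 1 group. Depth limits the members little: the lowest had 711 reads in a library.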

Other observations

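Other mature products of the RefSeq table also carry the letters AGUGCA at bases 2 to 7, 7 entries in all. Beside Mir130a, Mir130b and Mir301, they come from Mir130c, Mir6341, Mir6389 and Mir721. For Mir301b that table held 1 mature sequence, without these letters, so the search does not tell whether its other arm carries them. Mir130c, Mir6341 and Mir6389 had 0 own-strand reads in both libraries, which leaves room for at most 0.404 CPM (replicate 1) and 0.512 CPM (replicate 2). Mir721 has no line under that name in the deposited counts. Per gene, all 3 members of the miR-148/miR-152 family, at 120.1 to 461 CPM by mean, were thus above the genes with 0 reads. They were below Mir130a at 24333 ± 2437, Mir130b at 6131 ± 839 and Mir301 at 750 ± 130 CPM. Mir301b, at 65.6 ± 5.11 CPM, was below all members (SD, n = 2 each).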
